A study of Mus musculus with 4 samples.

Results

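Sorted hair cells and non-hair cells of the newborn mouse cochlea were compared without drug, to describe which gene programs separate the populations at rest. The comparison used 2 of the 4 samples of the series, the hair cell control and the non-hair cell control, each deposited as 3 replicates, which gives 6 of 12 replicate columns. Cochleae came from mice at postnatal day 1 that carried an Atoh1-GFP reporter, a transgene in which an enhancer of Atoh1 drives green fluorescent protein, on a CD1 background. The organs were cultured overnight in low oxygen (5% O2) and then dissociated with enzymes, and cells were separated by fluorescence-activated cell sorting. The hair cell control holds GFP-positive cells, and cells with weak GFP were kept out by the gate because inner phalangeal cells, a kind of supporting cell, express the reporter weakly. The non-hair cell control holds the GFP-negative cells, a mixture of supporting cells, the epithelial ridges on either side of the sensory strip and surrounding tissue. The other 2 samples are the same populations treated for 3 h with gentamicin at 0.5 mM. They enter the estimate of the spread between replicates, the minimum of reads for testing a gene and the factors of the alternative scalings. The contrast itself holds the control columns only. How many animals stand behind a replicate is not given in the labels, so the p-values measure the spread between these replicate columns.

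Hair cells convert sound into electrical signals. Deflection of the stereocilia, actin-filled projections on the apical surface, pulls on tip links and opens transduction channels, and the resulting depolarisation releases glutamate at ribbon synapses onto spiral ganglion neurons. In the newborn mouse the hair cells have left the cell cycle but are still maturing: they carry a kinocilium that is later lost, receive transient cholinergic innervation from the brainstem, and signal to neighbouring supporting cells through Notch ligands. Supporting cells, mesenchyme, vessels, glia and neurons surround them.

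The files give a score for each of 23420 gene symbols, which is the number of reads scaled per replicate with 1 added, so that a score of 1 means no reads. Reads on genes ranged from 22399803 to 26058563 in the 6 control columns, and 1 score unit was worth 21.7–25.9 reads. Differences are given on the log2 scale of the score. The added 1 makes these differences smaller than the true change for genes near a score of 1. Scores do not take gene length into account, so levels of different genes are compared only per kb of transcript, as the score above 1 divided by transcript length. Replicates were close to each other: the median SD of the log2 score was 0.0945 over the hair cell replicates and 0.145 over the non-hair cell replicates.

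Of 16077 genes with enough reads to be tested, 5128 were higher in hair cells (31.9%) and 6778 were lower (42.2%) at an adjusted p under 0.05 in limma, a linear model fitted across all genes. A stricter rule also asked for a difference of at least 4-fold, which is 2 on the log2 scale. It was met by 949 genes in the higher direction (5.9%) and by 1557 in the lower direction (9.68%). A difference of at least 16-fold was found for 261 called genes higher in hair cells and for 147 lower. The median difference of all genes tested was -0.12, with quartiles of -0.88 and 0.46. Scaling the replicates by the median of gene ratios moved that median by 0.11, and the direction of the median of each of the 37 gene lists described below was the same under that scaling and under scaling to equal totals.

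**Figure D1:**
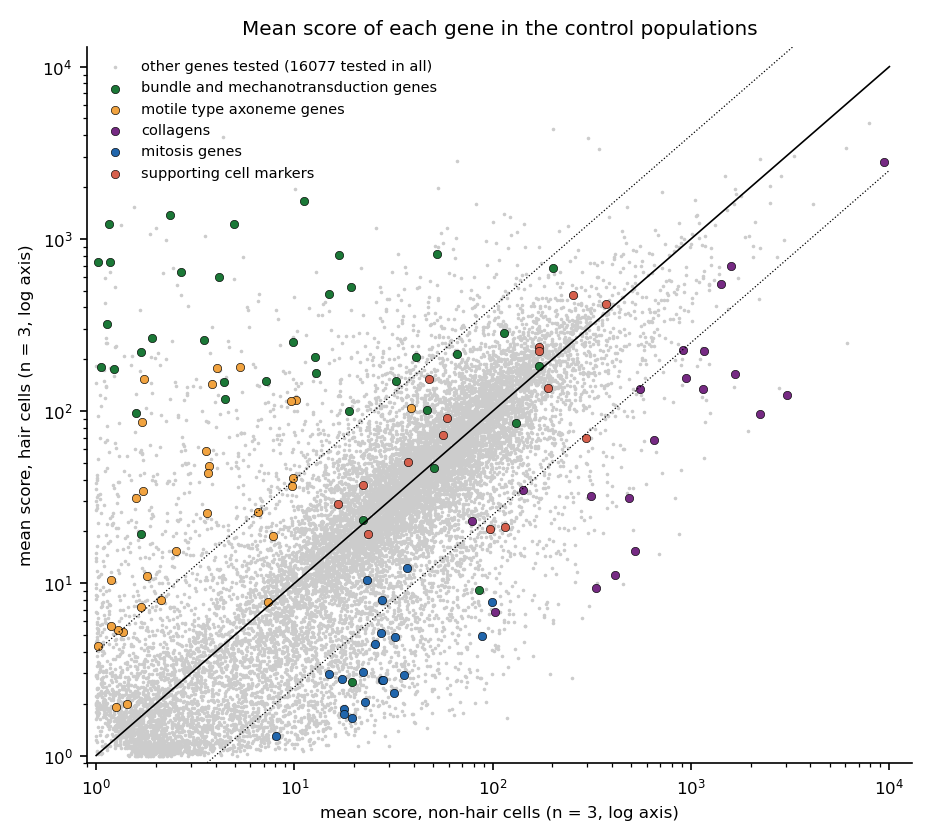
Mean score of each tested gene in hair cells (vertical, log axis) against non-hair cells (horizontal, log axis), with 3 replicates behind each mean. Points are genes, coloured by list, the solid line marks equal scores and the dotted lines mark 4-fold differences. Bundle and axoneme genes lie mostly above the upper dotted line, collagens and mitosis genes mostly below the lower one, and supporting cell markers close to the solid line.

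A pair of replicates stood apart from the others of their group. Hair cell replicate 2 held more RNA of many connective tissue genes: the score of Col3a1, a fibrillar collagen, was 80.8, 213 and 79.8 in hair cell replicates 1, 2 and 3, and that of Igf2, an insulin-like growth factor, was 101, 204 and 101. Non-hair cell replicate 1 held more RNA of haemoglobin genes, and the summed score above 1 of 8 erythroid genes there was 114, against 6.97 and 12.5 in non-hair cell replicates 2 and 3. Without hair cell replicate 2, the 4-fold rule was met by 947 genes in the higher and 1655 in the lower direction, and without non-hair cell replicate 1 by 901 and 1621.

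The transcription factors of the hair cell lineage were strongly separated between the populations. Of 10 such factors, 9 were higher in hair cells and 1 was lower, 8 by at least 4-fold, with a median difference of 6.96 against -0.12 over all genes tested. Barhl1, a homeobox factor needed for hair cell survival (chromosome 2, 28907679–28916668, mm10), had scores of 517, 542 and 515 in the 3 hair cell replicates and 1.17, 1.36 and 1.23 in the non-hair cell replicates. The populations did not overlap and Barhl1 was close to no reads outside hair cells: 35707 reads were counted over the 3 hair cell columns and 19 over the 3 non-hair cell columns. The difference was 8.72 (SE 0.17, adjusted p = 4.9e-12). Pou4f3, a POU-domain factor required for hair cell maturation, differed by 8.58, and its scores were 452, 417 and 405 against 1.25, 1.04 and 1.04. Gfi1, a zinc finger repressor that acts in the same lineage, gave 280, 262 and 257 against 1.12, 1.20 and 1.04, a difference of 7.89 (SE 0.10).

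Lhx3, a LIM homeobox factor, followed with a difference of 7.79, and Nhlh1, a helix-loop-helix factor, with 6.68. Atoh1, the proneural factor that starts hair cell differentiation, scored 223, 190 and 215 against 1.29, 1.36 and 1.502, a difference of 7.24 (SE 0.20). Since an Atoh1 enhancer drives the reporter that was sorted, this gene is not independent of the way the groups were made. Insm1, a zinc finger factor of developing outer hair cells, differed by 5.21 and Hes6, a helix-loop-helix factor downstream of Atoh1, by 3.28. Hes6 was not confined to hair cells, with 35.0, 35.1 and 34.2 in the non-hair cell replicates. Rfx3, a regulator of ciliary genes, was 1.42 higher in hair cells. Ikzf2, which acts later in outer hair cells, was lower: its scores were 13.99, 17.8 and 18.5 in hair cells and 22.3, 24.3 and 23.5 in non-hair cells, a difference of -0.49 (adjusted p = 0.017) that was not called without hair cell replicate 1 or non-hair cell replicate 2.

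Promoter sequence is shown for genes that were high in hair cells together, since the recognition sequence of Atoh1 and its relatives is the E-box, whose core is CAGCTG here. The windows are the 120 bases before an annotated start in RefSeq (GRCm38.p6), read on the gene's strand from 5′ to 3′. Each printed window was chosen because it holds the E-box, in capitals, and no annotated exon. The counts that follow include windows over exons as well. Of 32851 windows in the RefSeq table, 2220 (6.76%) hold CAGCTG, which reads the same on both strands. It is present in 2 of 11 windows of the hair cell transcription factors, 1 of 16 of the unconventional myosins and 2 of 5 of the cholinergic receptor genes described below. These windows belong to 7, 11 and 5 list members, taken whatever their call, so they include myosins that were lower in hair cells. Barhl1 (chr2:28916669-28916788, minus strand) has the E-box starting 99 bases before the start, Myo15 (chr11:60469219-60469338, plus strand) 82 bases before and Chrna9 (chr5:65967004-65967123, plus strand) 13 bases before. Chrna1 (chr2:73580339-73580458, minus strand) has copies 92 and 44 bases before the start. The Chrna9 window lies within the annotated span of its own gene. A match is a description of the letters only and no binding was measured here.
Barhl1: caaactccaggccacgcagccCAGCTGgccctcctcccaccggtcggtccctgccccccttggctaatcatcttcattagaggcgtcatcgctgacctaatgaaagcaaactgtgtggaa
Myo15: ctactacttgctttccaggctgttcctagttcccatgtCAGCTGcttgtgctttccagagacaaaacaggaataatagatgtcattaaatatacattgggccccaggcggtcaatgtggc
Chrna9: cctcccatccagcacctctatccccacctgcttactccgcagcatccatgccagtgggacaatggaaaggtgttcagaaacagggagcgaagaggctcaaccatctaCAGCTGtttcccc
Chrna1: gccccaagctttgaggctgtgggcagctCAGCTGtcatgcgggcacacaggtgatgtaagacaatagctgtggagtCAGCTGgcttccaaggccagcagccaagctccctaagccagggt

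Factors that mark the wider sensory epithelium separated the populations less. Of 9 tested, 5 were higher in hair cells and 1 was lower, against 31.9% and 42.2% of all genes tested, with a median of 0.83. Pax2, a paired-box factor of the otic placode, was 3.21 higher in hair cells (74.1, 68.4 and 60.5 against 4.76, 7.18 and 11.4). Tbx2, Gata3 and Eya1 were higher by 1.38, 0.97 and 0.83. Sox2, which marks prosensory and supporting cells, scored 226, 214 and 264 in hair cells and 136, 149 and 230 in non-hair cells, so the ranges overlapped and no difference was called (0.49, SE 0.31, adjusted p = 0.17), while with the replicate block the adjusted p was 0.019. Lmx1a, a factor of nonsensory otic epithelium, was 2.92 lower in hair cells on the log2 scale.

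**Figure D2:**
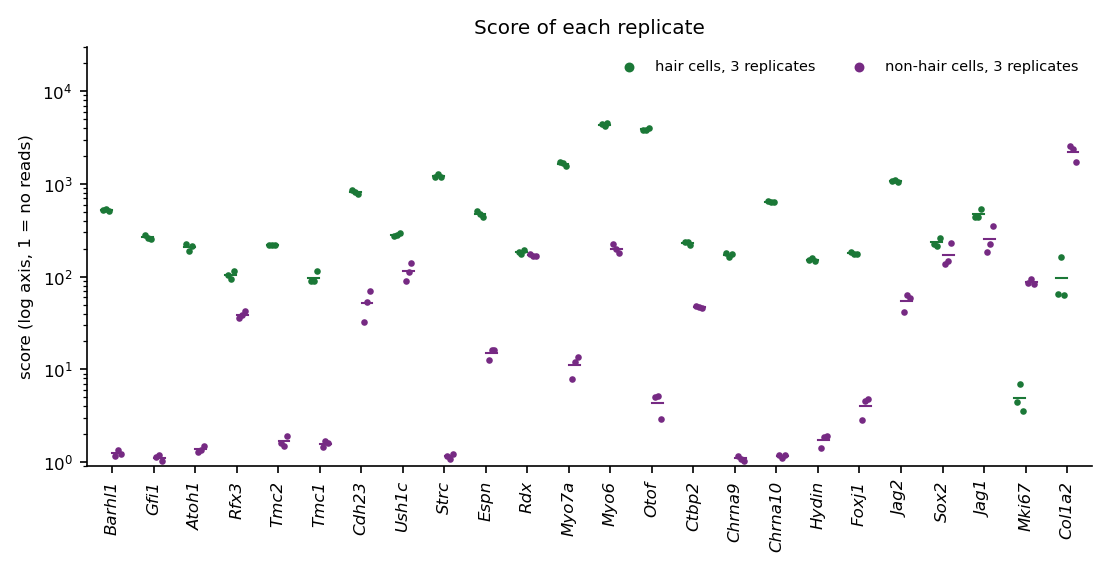
Score of each replicate (log axis, 1 means no reads) for 24 genes, with hair cells in green and non-hair cells in purple, points as replicates and short lines as means of 3. Bundle, synapse and axoneme genes separate the populations by up to 10.03 on the log2 scale, while Rdx and Sox2 overlap.

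Every tested gene of the mechanotransduction machinery was higher in hair cells. All 11 members of the list were called, 10 of them by at least 4-fold, with a median of 5.59. Tmc1 and Tmc2 encode the pore-forming subunits of the transduction channel. Tmc2 (chromosome 2, 130195194–130264445) scored 219, 221 and 221 in hair cells against 1.61, 1.51 and 1.90, and Tmc1 (chromosome 19, 20783458–20954202) scored 89.0, 89.4 and 114 against 1.47, 1.68 and 1.595. The non-hair cell replicates were near the level of no reads for both, and the differences were 7.05 (SE 0.12) and 5.94 (SE 0.21). Per kb of transcript, hair cells held 68.2 score units of Tmc2 and 23.7 of Tmc1.

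Partners of the channel followed the same pattern. Lhfpl5, which links the channel to the tip link, had 645, 638 and 630.5 in hair cells against 1.66, 3.42 and 2.97 (difference 7.96). Cib2, a calcium-binding partner of the TMC proteins, had the highest level per kb of the list in hair cells (560 score units per kb) and differed by 5.59 with the small SE of 0.08. Tomt, which brings TMC proteins to the bundle, differed by 6.22 and Tmie, a further channel subunit, by 3.69. The tip link itself is made of cadherin 23 and protocadherin 15. Cdh23 scored 866, 819 and 776 in hair cells and 32.7, 53.8 and 70.7 in non-hair cells, and Pcdh15 scored 217, 187 and 215 against 9.85, 11.96 and 16.5, a difference of 4.04 for each. The non-hair cell replicates held 6.28% of the hair cell level of Cdh23 but 0.0131% of that of Strc, a bundle gene described next. Ush1c, the scaffold harmonin, was the least distinct member at 1.34 (276, 283 and 295 against 90.6, 112 and 141).

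The ankle links, which connect stereocilia near their base during development, include the adhesion receptor Gpr98 and its scaffolds. All 5 genes of this complex were at least 4-fold higher in hair cells. Gpr98 scored 668, 558 and 578 in hair cells and 3.73, 3.97 and 4.82 in non-hair cells, a difference of 7.18 (SE 0.10), and the ranges did not overlap. Clrn1 differed by 4.78, Pdzd7 by 4.75 and Whrn, the scaffold whirlin, by 2.21.

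Genes of the stereociliary core and its coat included the largest difference among the named genes. Of 23 tested, 17 were higher and 3 lower, 14 and 2 of them by at least 4-fold, with a median of 4.39. The 4-fold shares over all genes tested were 5.9% and 9.68%. Strc, stereocilin, which joins the stereocilia at their tops (chromosome 2, 121363728–121387168), scored 1174, 1273 and 1193 in hair cells and 1.17, 1.08 and 1.23 in non-hair cells. Over 3 columns these were 82622 reads in hair cells and 12 reads in non-hair cells, and the difference was 10.03 (SE 0.33). Loxhd1, a PLAT-domain protein of the bundle, was represented by 50099 reads against 2 reads, Espnl, an espin-like actin regulator, by scores of 1391, 1366 and 1352 against 2.07, 2.23 and 2.74, and Ptprq, a phosphatase of the shaft links, by 1245, 1202 and 1226 against 4.14, 4.96 and 5.75. Grxcr2, Grxcr1, Xirp2 and Fscn2 differed by 7.15–8.14. The actin bundler Espn (espin) had 510, 478 and 440.5 against 12.5, 16.1 and 16.4.

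Not every actin-binding protein of stereocilia followed the bundle genes. Rdx, radixin, which ties actin to the membrane, scored 184, 174 and 193 in hair cells and 176, 168 and 168 in non-hair cells, and the ranges overlapped. It was not called, except under median of ratios scaling (adjusted p = 0.014). The plastins are actin cross-linkers that differed in direction: Pls1 was 1.76 higher in hair cells, whereas Pls3 was 3.24 lower and Lcp1, the leukocyte plastin, 2.87 lower on the log2 scale. Pls3 had 8.47, 10.7 and 8.14 in hair cells and 97.3, 80.9 and 78.7 in non-hair cells. Gnai3, an inhibitory G protein subunit that helps shape the bundle, was lower by a smaller amount (-0.63).

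Unconventional myosins were called in both directions. Of 12 tested, 6 were higher, all by at least 4-fold, and 5 were lower, against 42.2% of all genes tested that were lower. Myo7a, the tip link motor, had 1726, 1663 and 1581 against 7.86, 11.97 and 13.6, and Myo15, the motor that delivers the elongation complex to stereocilia tips, had 1077, 1206 and 1183 against 1.70, 2.23 and 2.08. Myo3a had no reads in the 3 non-hair cell columns and 182, 171 and 194 in hair cells. With 3 reads per column as the floor, it was at least 1463-fold higher. Myo6, a motor that moves toward the minus end of actin, was the most abundant of the list per kb (551 score units) and was also present outside hair cells: its scores were 4404, 4203 and 4502 against 222, 200 and 181, so that non-hair cells held 4.57% of the hair cell level. Myo1c, a motor also known from stereocilia, was 2.88 lower in hair cells (8.98, 14.2 and 9.33 against 77.5, 81.6 and 75.6) and Myo5a 1.66 lower.

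Calcium handling genes were higher in hair cells in 9 of 10 cases, 7 by at least 4-fold, against 31.9% and 5.9% of all genes tested. Calb1, the buffer calbindin, scored 1855, 1838 and 2235 against 46.5, 43.1 and 68.8, a difference of 5.25. Ocm, oncomodulin, the buffer of outer hair cells, was low but clearly separated at 40.6, 62.6 and 69.9 against 1.04, 1.24 and 1.19. Pvalb, parvalbumin, differed by 3.28, and Atp2b2, the calcium pump of the bundle, by 3.19 (409, 400 and 394 against 25.3, 54.4 and 61.2). Calb2, calretinin, which many spiral ganglion neurons also express, was 1.79 higher. Cabp1, a calcium-binding regulator of channels, was the exception at -1.96 (1.91, 3.69 and 2.29 against 6.62, 12.4 and 11.5).

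Ribbon synapse genes included a strongly separated set and genes with similar scores in both populations. Of 24 tested, 14 were higher and 3 lower, 7 and 1 by at least 4-fold, with a median of 0.90. The shares over all genes tested were 31.9% and 42.2%, and 5.9% and 9.68% by at least 4-fold. Otof, otoferlin, the calcium sensor of hair cell exocytosis (chromosome 5, 30367062–30461932), had 3844, 3823 and 4030 in hair cells and 5.09, 5.16 and 2.89 in non-hair cells, a difference of 9.85 (SE 0.28). Non-hair cells held 0.0867% of the hair cell level. Rims2 and Rimbp2, which hold calcium channels at the active zone, differed by 4.85 and 3.898, and Cacna1d, the pore of the presynaptic calcium channel, by 3.85 (485, 460 and 464 against 24.8, 42.7 and 32.6).

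Slc17a8, the vesicular glutamate transporter of inner hair cells, had 59.4, 52.8 and 67.1 against 7.58, 7.09 and 8.71, and Ctbp2, whose ribeye isoform builds the ribbon, had 236, 236 and 218 against 48.3, 47.5 and 46.4. Their differences were 2.94 and 2.28. The neuronal release proteins behaved differently. Snap25 scored 49.3, 57.6 and 58.8 in hair cells and 40.3, 101 and 86.8 in non-hair cells, and Cplx1 scored 64.6, 80.1 and 65.5 against 72.5, 179 and 150. For both, hair cells lay within or near the wide range of the non-hair cell replicates and no difference was called. Rims1, the paralogue of Rims2, was lower in hair cells by 2.04 on the log2 scale (1.74, 3.14 and 1.65 against 6.12, 10.9 and 9.46). Without non-hair cell replicate 1, 5 genes of the list were lower, and with array weights 7.

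Immature hair cells receive cholinergic input through a receptor made of the α9 and α10 subunits, coupled to the potassium channel SK2. The genes of all 3 components were higher in hair cells. Chrna10 had 662, 642 and 631 against 1.21, 1.12 and 1.19, and Chrna9 had 180, 163 and 174 against 1.17, 1.08 and 1.04. Both were close to no reads outside hair cells, with 13 and 7 reads over 3 columns, and their differences were 9.10 and 7.30. Kcnn2, which encodes SK2, differed by 3.71 (59.0, 51.5 and 60.8 against 4.77, 4.37 and 3.94). A pair of muscle-type receptor subunits was also high: Chrna1 had 204, 207 and 239 against 2.005, 2.19 and 1.94, and Chrng had 124, 108 and 142 against 2.45, 2.78 and 3.39. Chrnb1, the muscle-type β subunit, scored 23.1, 21.4 and 23.9 against 16.1, 19.02 and 23.0 and was not called (adjusted p = 0.25). In all, 5 of 8 genes of this list were called, each of them at least 4-fold higher, against 5.9% of all genes tested.

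Of 10 potassium channel genes, 7 were at least 4-fold higher in hair cells and 1 was lower, against 5.9% and 42.2% of all genes tested. Kcna10, a channel of the bundle and basolateral membrane, had 141, 131 and 146 against 1.12, 1.12 and 1.12, a difference of 6.96. Kcnmb2, a β subunit of the large-conductance calcium-activated channel, differed by 5.41, whereas its pore gene Kcnma1 scored 12.1, 11.4 and 14.8 against 5.55, 10.2 and 9.90 and was not called (0.62, adjusted p = 0.077), except under median of ratios scaling (adjusted p = 0.04), where 9 of the 10 genes were higher. Kcnj2, an inward rectifier, was 1.13 lower on the log2 scale.

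Genes that distinguish outer from inner hair cells were present for both kinds. Of 12 tested, 11 were higher in hair cells than in non-hair cells, 10 by at least 4-fold. Slc26a5, prestin, the motor protein of outer hair cells, was at 22.2, 31.5 and 28.2 in hair cells, and 1 read was counted over the 3 non-hair cell columns. Fgf8, a signal of inner hair cells, was at 94.6, 84.5 and 101, with 2 reads over the 3 non-hair cell columns. Bcl11b, a zinc finger factor of outer hair cells, differed by 3.25 and Lmod3, a leiomodin, by 5.49. Inner and outer hair cells were not sorted apart, so their shares cannot be read from these samples.

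Of 16 splicing regulators known from neurons, 5 were higher in hair cells and 8 lower, which is near the shares over all genes tested (31.9% and 42.2%). Srrm4, which drives the inclusion of neural microexons, was 4.66 higher (296, 266 and 271 against 7.41, 14.9 and 12.1) and Rbfox3 was 2.87 higher, while the neuronal RNA-binding proteins Elavl4 and Elavl3 were 2.40 and 2.11 lower on the log2 scale. The count of lower members was 5 without hair cell replicate 1, without non-hair cell replicate 2 or without non-hair cell replicate 3.

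Genes of the motile type of axoneme were higher in hair cells almost throughout. These genes build dynein arms, radial spokes and the central pair of microtubules, structures known from beating cilia. Of 30 tested, 29 were higher in hair cells and 21 by at least 4-fold, with a median of 2.62, and the ranges of these 29 did not overlap. Hydin, a giant protein of the central pair, had 150, 160 and 148 against 1.41, 1.87 and 1.93, a difference of 6.47 (SE 0.14). Foxj1, the transcription factor that drives motile ciliogenesis, had 185, 174 and 175 against 2.86, 4.57 and 4.75, a difference of 5.49. Spag6 (5.67), Ccdc40 (5.23), Dnaic2 (5.09) and Dnahc11 (4.33) were other members with large log2 differences. Levels were modest per kb, at 9.63 score units for Hydin and 67.5 for Foxj1. The smallest differences were those of Dnahc5, an outer arm dynein (0.56), Spag17, a protein of the central pair (0.48), and Rfx2, a regulator of ciliary genes (0.10). Rfx2 was the member that was not called, with 8.47, 7.50 and 7.31 against 9.60, 6.78 and 5.79 (adjusted p = 0.67).

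Promoters of ciliary genes often hold the X-box, the site of RFX factors, of which GGCAAC is the core repeat. In the windows of 120 bases before the start, GGCAAC was sought on either strand (read as GTTGCC on the other). It was found in 10 of 27 windows of the axoneme genes, against 1795 of 32851 (5.46%) windows in the whole table. The 27 windows belong to 24 list members, taken whatever their call. The examples below come from axoneme genes at least 4-fold higher in hair cells whose window holds the repeat and no annotated exon. They were taken in order of the difference. Each holds 2 copies, in capitals, which differ between the genes in order and spacing. Whether they form an X-box was not tested. Tekt1 and Tekt2 encode tektins, filament proteins of the axoneme, and Spag16 encodes a protein of the central pair. Their windows lie at chr11:72361883-72362002 on the minus strand, chr4:126325689-126325808 on the minus strand and chr1:69826850-69826969 on the plus strand. The Tekt1 window lies within the annotated span of its own gene.
Tekt1: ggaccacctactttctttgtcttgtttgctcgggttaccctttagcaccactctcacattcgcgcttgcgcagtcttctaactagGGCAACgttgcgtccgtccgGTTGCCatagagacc
Tekt2: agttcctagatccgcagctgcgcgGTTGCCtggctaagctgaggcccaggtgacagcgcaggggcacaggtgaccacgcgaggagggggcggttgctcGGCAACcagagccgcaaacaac
Spag16: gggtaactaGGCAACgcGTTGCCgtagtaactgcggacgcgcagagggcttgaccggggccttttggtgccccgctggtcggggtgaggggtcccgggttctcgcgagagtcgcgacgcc

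In the data, Tekt1 was at 52.9, 46.8 and 44.9 in hair cells against 3.03, 3.97 and 4.09, Tekt2 at 39.6, 41.2 and 42.4 against 9.35, 9.28 and 10.7, and Spag16 at 6.38, 4.38 and 5.24 against 1.41, 1.24 and 1.19. The differences were 3.71, 2.07 and 2.04, and the ranges of the populations did not overlap. Rfx3 had a smaller difference of 1.42, with 104.7, 94.1 and 114 against 36.0, 38.5 and 42.2.

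**Figure D3:**
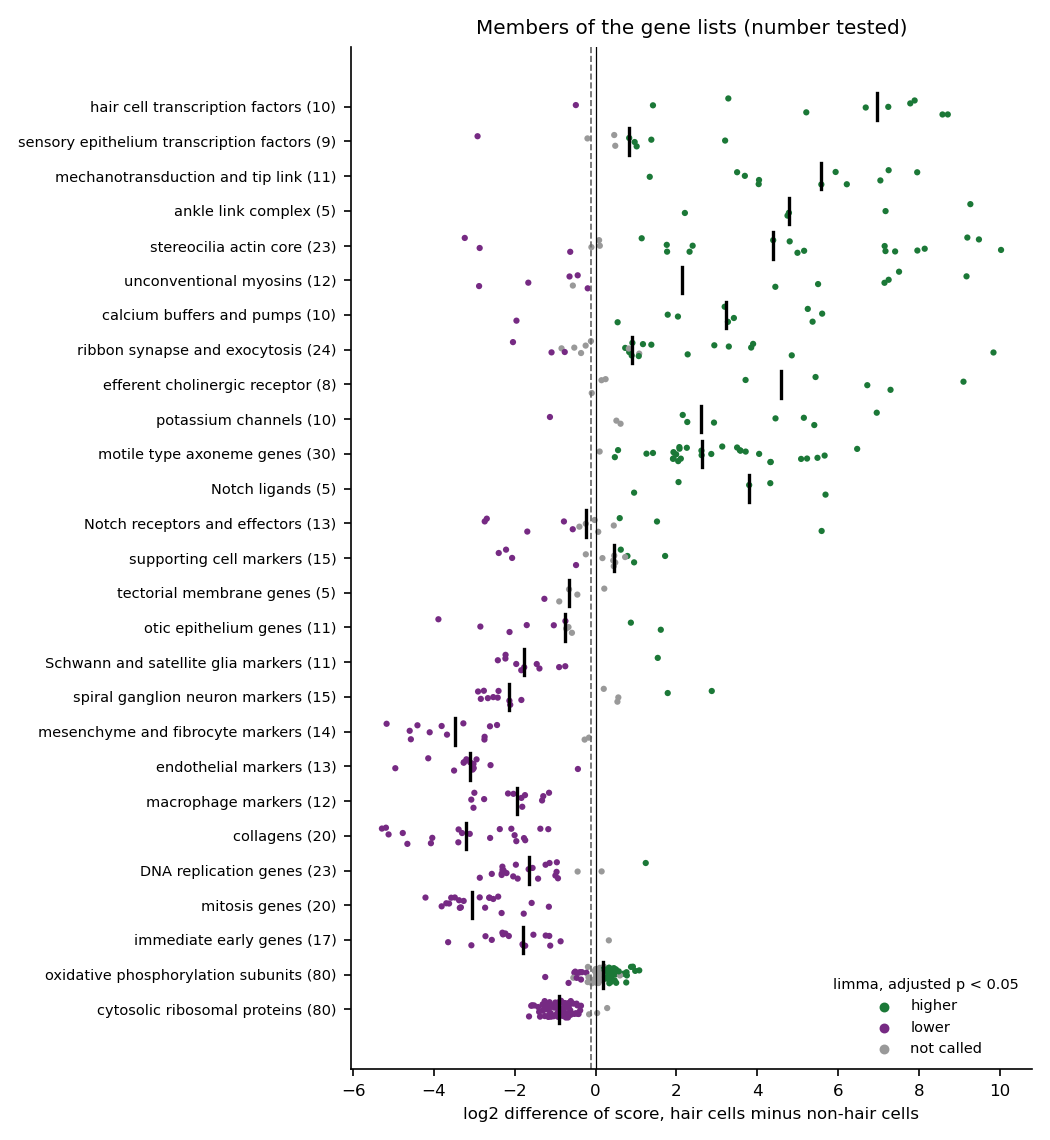
Log2 difference of each tested member of 27 gene lists, hair cells minus non-hair cells, with the number tested in parentheses. Points are genes, green where higher, purple where lower and grey where not called by limma, black bars are list medians and the dashed line is the median of all genes tested (-0.12). Lists of hair cell function lie to the right, lists of connective tissue, vessels, macrophages and the cell cycle to the left, and supporting cell markers around the middle.

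Notch ligands were higher in hair cells in all 5 cases, 4 by at least 4-fold. Jag2 was the most abundant in hair cells per kb (211 score units) and had 1067, 1108 and 1057 against 41.7, 63.8 and 58.6, a difference of 4.32. Dll3, a ligand that acts within the cell, differed by 5.69, Dll1 by 3.8 and Dll4 by 2.05. Jag1, which supporting cells are known to express, scored 444, 443 and 532 in hair cells against 184, 226 and 348, a difference of 0.95 (adjusted p = 0.021).

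Of 13 receptors and effectors of the pathway, 3 were higher and 5 lower, against 31.9% and 42.2% of all genes tested. Mfng, a glycosyltransferase that modifies Notch receptors, was 5.59 higher in hair cells (373, 399 and 385 against 6.54, 8.13 and 9.57). Of the receptors, Notch1 was 0.78 lower, Notch3 0.56 lower, Notch2 2.69 lower and Notch4, the receptor of vessels, 2.74 lower on the log2 scale. Hes1, a target of the pathway, scored 30.3, 30.5 and 55.1 in hair cells and 107, 104 and 153 in non-hair cells, a difference of -1.69. The targets Hes5, Hey1 and Hey2 were not called, and for each of them the ranges of hair cells and non-hair cells overlapped. With the replicate block the adjusted p of Hes5 was 0.0093.

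Of 30 secreted signals, 6 were higher and 18 lower in hair cells, against 31.9% and 42.2% of all genes tested. Bdnf, a neurotrophin for the innervating neurons, had 140, 130 and 142 against 2.41, 3.02 and 3.16, a difference of 5.59. Fgf8 differed by 6.51 and Fgf20, a signal of the prosensory region, by 2.52. The lower genes were led by Bmp4, a bone morphogenetic protein of nonsensory epithelium, with 3.14, 4.68 and 3.29 against 104, 144 and 156 (difference -5.19), followed by Bmp5 at -4.45, Igf2 at -4.42 and Igf1 at -3.64. Hair cell replicate 2 was the highest of the 3 hair cell replicates for these 4 genes.

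The list of the 15 largest differences in the higher direction held further genes outside the lists. Pkhd1l1, a large membrane protein of the stereocilia surface, had 1463, 1564 and 1547 against 1.74, 1.40 and 1.54 (difference 9.94). Fcrlb, an Fc receptor-like protein, had 1251, 1155 and 1212 against 1.62, 1.24 and 1.15 (9.83). The predicted gene Gm6537 (9.15), Tmem255b (9.06) and Strip2 (8.19) were also among them. Other members of that list were described above. By level per kb of transcript, genes near the top of the 4-fold higher set were Pcp4 at 1219 score units per kb, Gm6537 at 1013, Fcrlb at 938 and Rasd2, a small GTPase, at 691. Rasd2 was low outside hair cells, with 2035, 1932 and 1862 against 6.68, 11.9 and 11.5.

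Markers of supporting cells were called in both directions. Of 15 tested, 4 were higher in hair cells, 4 were lower and 7 were not called, with a median of 0.45, and none was at least 4-fold higher. Over all genes tested, 31.9% were higher and 42.2% lower. The summed score above 1 of the list in hair cell replicates 1, 2 and 3 was 102%, 98.2% and 120% of the mean of the non-hair cell replicates. Lgr5, a Wnt coreceptor of supporting cells with progenitor capacity, scored 147, 129 and 183 in hair cells and 37.0, 39.0 and 67.1 in non-hair cells, a difference of 1.72 (adjusted p = 0.00018). Lgr6, its relative, was 0.79 higher, and the gap junction gene Gjb6 0.62 higher. Jag1, given above with the Notch ligands, was the other higher marker. Hair cell replicates lay above the non-hair cell replicates for each of these, and for 5 of the 15 markers in all.

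Most of the remaining markers overlapped between the populations or were lower in hair cells. Fgfr3, a receptor of pillar and Deiters' cells, scored 220.4, 243 and 210.5 against 128, 152 and 233 and was not called (adjusted p = 0.22). Gjb2, the main cochlear connexin, scored 411, 355 and 487 against 359, 319 and 436. The markers that were lower were Slc1a3, a glutamate transporter of inner phalangeal and border cells (66.5, 66.3 and 77.1 against 342, 309 and 235, difference -2.07), Cd44, a marker of pillar cells (-2.22), Ngfr, the neurotrophin receptor of pillar cells (-2.40), and Cdkn1b (-0.48). The number of higher markers was 2 without hair cell replicate 3, without non-hair cell replicate 1 or without non-hair cell replicate 2, 6 with the replicate block and 7 with array weights. The part of RNA from supporting cells in the hair cell samples was not tested.

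Genes of the tectorial membrane, the gel that covers the sensory strip and is secreted by neighbouring epithelium, were present at high scores in both populations. Tecta had 1275, 1075 and 1428 in hair cells and 1413, 1700 and 3190 in non-hair cells, and Tectb had 627, 477 and 669 against 872, 863 and 1725. Non-hair cell replicate 3 was the highest and the ranges of Tecta overlapped. Of 5 genes tested, 1, Otogl, was called, as lower in hair cells. With the replicate number as a block in the model, 3 of the 5 were called lower, as with array weights, and without non-hair cell replicate 3 the count was 0. The adjusted p of Tecta was 0.023 and that of Tectb 0.0031 in the model with the block. Of 11 genes of otic epithelium, 2 were higher in hair cells and 6 lower, against 31.9% and 42.2% of all genes tested. The number lower was 9 with the replicate block, with array weights or without non-hair cell replicate 1, and 4 without non-hair cell replicate 3. The cadherin gene Cdh1 was 1.61 higher in hair cells, and the epithelial keratins Krt8, Krt18 and Krt19 were lower by 1.70, 2.13 and 3.89 on the log2 scale.

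**Figure D4:**
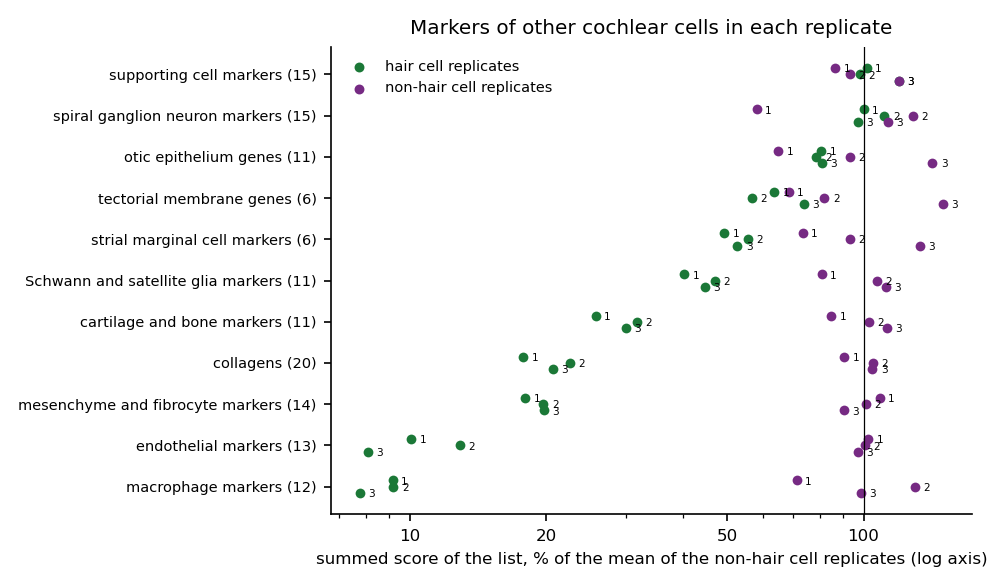
Summed score of each marker list in each replicate as a percent of the mean of the non-hair cell replicates (log axis), hair cells in green and non-hair cells in purple, with the replicate number beside each point and the number of genes in parentheses. The summed supporting cell markers of hair cells lie at 98.2–120% and macrophage markers at 7.78–9.21%, and the neuron sum varies most between non-hair cell replicates 1 and 2.

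Connective tissue genes were lower in hair cells. Of 14 markers of mesenchyme and fibrocytes, 12 were lower in hair cells, each of them by at least 4-fold, with a median of -3.47. Tbx18, a T-box factor of otic mesenchyme, had 6.04, 16.8 and 7.08 in hair cells and 430, 353 and 222 in non-hair cells, a difference of -5.17. Pou3f4, a POU factor of the same tissue, had 4.13, 8.36 and 3.86 against 160.0, 107 and 73.9 (-4.41). Both were highest in replicate 2 among hair cells and far below each non-hair cell replicate. Pdgfra, in contrast, had 284, 249 and 297 in hair cells against 408, 375 and 242, with overlapping ranges and no call. In bulk samples such as these, fewer cells of a type and less RNA per cell cannot be told apart.

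Collagens were lower in all 20 cases and in 15 by at least 4-fold, with a median of -3.21. Col1a2 scored 64.5, 162 and 63.2 in hair cells and 2579, 2353 and 1744 in non-hair cells (-4.66), and Col3a1 scored 3188, 3418 and 2561 in non-hair cells (-4.77). The largest differences of this list were those of Col6a2 (-5.29), Col15a1 (-5.19) and Col6a1 (-5.12). Col2a1, which the otic epithelium as well as cartilage makes, kept 2490, 3006 and 2896 in hair cells against 8048, 9516 and 10581, a difference of -1.74. Of 24 other matrix genes, 20 were lower, among them Fn1, fibronectin (-3.84), Bgn, biglycan (-4.75), and Emilin1 (-4.71). Vcan, the proteoglycan versican, was the largest of 3 exceptions, with 341, 350 and 375 in hair cells against 97.0, 95.7 and 92.4 (1.90).

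Endothelial and macrophage markers were lower without exception. All 13 endothelial markers were called, 12 by at least 4-fold, and Emcn, endomucin, had 3.74, 6.73 and 3.21 in hair cells against 213, 137 and 82.8 (-4.96). Cdh5, the cadherin of vessels, had 6.21, 7.46 and 5.24 against 42.4, 60.5 and 72.9. All 12 macrophage markers were called, 6 by at least 4-fold, and 11 with an offset of 0.1 in place of 1, at low scores throughout: Csf1r, the receptor of colony-stimulating factor, had 1.30, 1.26 and 1.05 in hair cells and 6.13, 10.9 and 7.91 in non-hair cells. Summed over the lists, hair cell replicates held 8.10–12.9% of the mean non-hair cell score of endothelial markers and 7.78–9.21% of that of macrophage markers.

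Glial and neuronal markers were lower for most members but were not near 0 in hair cells. Of 11 Schwann and satellite glia markers, 10 were lower: Sox10, which the otic epithelium also expresses, scored 114, 135 and 113 against 260, 355 and 388 (-1.46). Of 15 neuronal markers, 10 were lower and 2 higher, against 42.2% and 31.9% of all genes tested. Tubb3 scored 15.9, 30.6 and 22.3 against 66.2, 163 and 154 (-2.42), and Gap43, a growth cone protein, 7.45, 7.76 and 7.08 against 48.7, 53.9 and 48.9 (-2.76). The neurofilament gene Nefm stayed high in hair cells, at 718, 748 and 632 against 244, 718 and 601, and was not called. The summed score above 1 of the list, of which Nefm is a large part, was 1057 in non-hair cell replicate 1, against 2336 and 2054 in replicates 2 and 3. In hair cell replicates 1, 2 and 3 that sum was 1818, 2019 and 1763, which was 100%, 111% and 97.1% of the non-hair cell mean.

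Markers of smaller populations are given next, against 42.2% of all genes tested that were lower and 31.9% that were higher. Of 8 cartilage and bone markers, 8 were lower. Of 6 strial markers, 4 were lower, led by Lrp2, the endocytic receptor megalin (13.4, 19.9 and 14.6 against 95.8, 155 and 288, difference -3.37). Of 7 melanocyte markers, 4 were lower, 1 was higher and 2 were not called, with a median of -0.44, while the summed list in hair cells was 119–123% of the non-hair cell mean. The higher member was Kit, a receptor that is not limited to melanocytes (0.71 higher). Dct, an enzyme of melanin synthesis, had 1.00, 1.21 and 1.23 in hair cells against 14.1, 12.6 and 9.34. Of 6 erythroid genes, 3 were lower in hair cells (Hba-a1, Hba-a2 and Beta-s), but none was called without non-hair cell replicate 1, without hair cell replicate 1 or without hair cell replicate 3, and 5 were called without non-hair cell replicate 2 or 3. Hba-a1 and Hba-a2 are near-identical copies that can share reads.

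The 15 largest differences in the lower direction included genes of several tissues. Aldh1a2, which makes retinoic acid, led with 2.39, 3.87 and 2.24 in hair cells against 308, 244 and 198 (difference -6.48, SE 0.22). Col6a6 (-6.05), Ly6a, a surface antigen of vessels and progenitors (-6.03), Tgfbi, a matrix protein (-5.57), and Apod, apolipoprotein D (-5.51), followed. Genes of the complement and interferon systems in that list were Serping1 (-5.32), C1s (-5.30), Ifitm1 (-5.42), Ifitm3 (-5.255) and Gbp6 (-5.32). Ly6a had 198, 72.7 and 85.0 in the non-hair cell replicates, with replicate 1 the highest. Cp, ceruloplasmin, Cav1, caveolin 1, Otor, otoraplin, and the collagens Col6a2 and Col15a1 completed it.

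By level per kb, H19, an imprinted noncoding RNA of growing tissue, led the genes that were at least 4-fold lower, with 2668 score units per kb in non-hair cells. Its scores were 194, 386 and 169 in hair cells and 8555, 5527 and 4216 in non-hair cells. Oc90, otoconin 90, a matrix protein made by nonsensory otic epithelium, reached 1015 per kb, with 57.4, 109 and 64.3 against 1082, 1843 and 2889. Vim, vimentin, the intermediate filament of mesenchyme, reached 541 per kb, with 102, 137 and 107 against 1392, 1110 and 1060.

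Cell cycle genes were lower in hair cells, which are post-mitotic at this age. All 20 mitosis genes were called, 17 by at least 4-fold, with a median of -3.07. Mki67, the proliferation antigen Ki-67, had 4.43, 6.94 and 3.53 in hair cells against 86.5, 94.8 and 83.9 (-4.21). Cdk1, the kinase that starts mitosis, had 1.87, 2.97 and 2.11 against 34.4, 31.1 and 30.0 (-3.81), and Top2a, topoisomerase II, 6.38, 10.02 and 6.90 against 98.7, 106 and 91.6. The hair cell replicates held 10.1%, 12.7% and 10.1% of the mean summed score of the list in non-hair cells, with replicate 2 the highest. Replication genes were lower by less: of 23, 20 were lower, 1 was higher and 2 were not called, with a median of -1.66. Of the lower genes, 9 met the 4-fold rule, and 42.2% of all genes tested were lower. Mcm3, a helicase subunit, had 4.08, 5.23 and 3.63 against 41.3, 28.6 and 25.4, whereas Pcna, the polymerase clamp, had 32.3, 31.6 and 35.0 against 85.4, 65.0 and 68.6. Cdc6, a licensing factor, was the higher member, with 14.3, 11.8 and 11.97 against 6.79, 4.41 and 5.13 (1.24, adjusted p = 8.0e-04).

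Among inhibitors of the cycle, the genes known to hold hair cells out of division differed from each other. Cdkn2d, the inhibitor p19Ink4d, scored 133, 121 and 130.5 against 32.2, 35.5 and 31.3, and Rb1, the retinoblastoma protein, 122, 116 and 134 against 42.1, 49.3 and 49.3. They were higher by 1.96 and 1.41. Cdkn1b, the inhibitor p27Kip1, which supporting cells keep, scored 127, 127 and 155 against 169, 186 and 219, and Cdkn1a scored 65.0, 81.5 and 84.0 against 109, 138 and 117. Both were lower, by 0.48 and 0.66 on the log2 scale. Of 9 genes of this list, 3 were higher and 5 lower, against 31.9% and 42.2% of all genes tested. The number lower was 3 under median of ratios scaling and without hair cell replicate 1, hair cell replicate 2 or non-hair cell replicate 3.

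**Figure D5:**
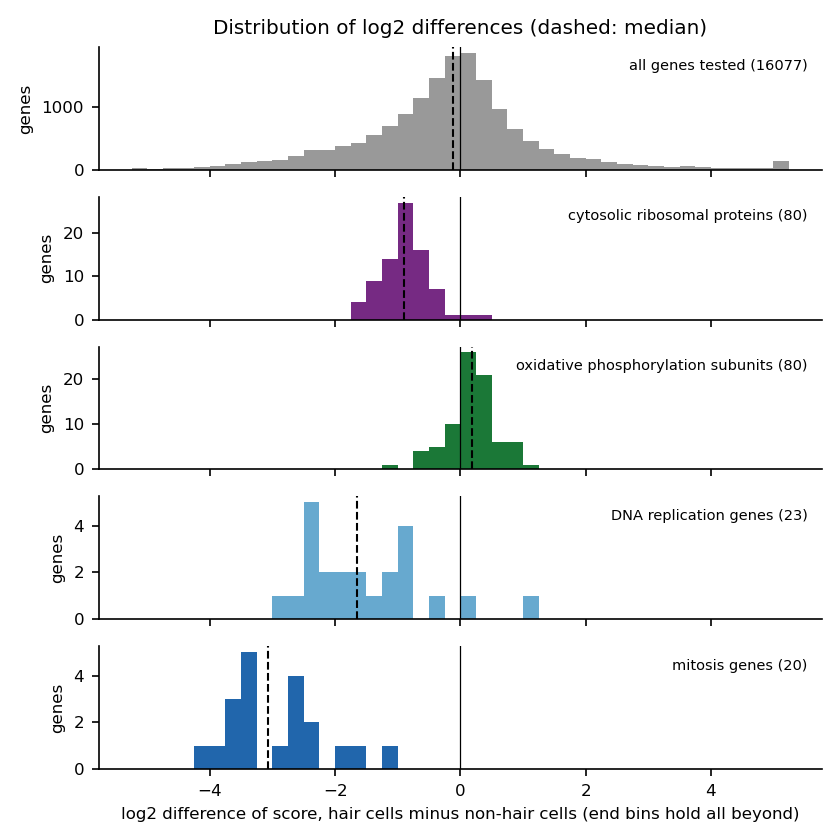
Histograms of the log2 difference, hair cells minus non-hair cells, for all genes tested and for 4 lists, with the number of genes on the vertical axis and the median dashed. Cytosolic ribosomal proteins lie in a narrow band below 0 (median -0.91), respiratory chain subunits lie around a median of 0.18, and mitosis genes lie below replication genes.

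Large housekeeping families were examined as well. Of 80 genes for cytosolic ribosomal proteins, 77 were lower in hair cells and 0 were higher, against 42.2% of all genes tested that were lower, with a median of -0.91. The summed score above 1 of the family was 27243, 27422 and 24941 in hair cells against 61437, 45026 and 43769 in non-hair cells. Non-hair cell replicate 1 was the highest, and without it 72 of 80 were lower, as were 72 under median of ratios scaling. The number higher was 1 under that scaling, with array weights and without non-hair cell replicate 3. Rplp0, a protein of the ribosomal stalk, had 603, 631 and 547 against 2148, 1566 and 1462. Processed pseudogenes can take reads from these genes. Of 80 genes for subunits of the respiratory chain and ATP synthase, 37 were higher, 10 lower and 33 not called, against 31.9% of all genes tested that were higher, with a median of 0.18. The counts were 49 higher and 9 lower under median of ratios scaling. The summed score above 1 was 9453, 9236 and 8936 in hair cells against 7867, 7349 and 7621. In the higher direction the largest differences were those of Ndufa8 and Ndufs1, subunits of complex I, at 1.08 and 0.98, and in the lower direction that of Cox6b2, a subunit of cytochrome c oxidase, at -1.25.

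Genes of glycolysis and glucose uptake gave few calls in the model with all 4 groups, 1 higher and 2 lower of 19. Ldha, lactate dehydrogenase A, was lower, with 545, 583 and 486 against 1437, 1188 and 1080 (-1.19, adjusted p = 0.048), and Ldhb was 0.42 higher. The number lower was 4 with the replicate block, 0 without hair cell replicate 3 or non-hair cell replicate 2, 1 without any other replicate, 0 under median of ratios scaling, 7 with array weights, and 11 when the 6 control columns were fitted alone, which leaves out the spread of the drug-treated replicates. Pgk1, phosphoglycerate kinase, was among the genes not called in the main model, with 488, 561 and 456 against 1344, 1198 and 1135, and its ranges did not overlap.

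Immediate early genes, which are induced within minutes by many stimuli including tissue dissociation, were lower in hair cells for 16 of 17 members, 8 by at least 4-fold, with a median of -1.81. Fos had 337, 512 and 493 in hair cells against 1906, 2559 and 2105 (-2.31), Junb had 144, 220 and 196 against 1201, 1418 and 1052 (-2.72), and Ier3 had 17.8, 26.5 and 25.1 against 327, 288 and 249 (-3.65). Btg2 was the exception, with no call. Both populations went through the same culture, digestion and sort, and whether they responded differently to that handling was not tested.

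The genes that separated the populations also differed in size. The 949 genes at least 4-fold higher in hair cells had a median span of 32.2 kb from start to end in GENCODE M21, against 24.2 kb for the 1557 genes at least 4-fold lower and 23.7 kb for all genes tested. Spans over 100 kb were found for 23.6%, 18.9% and 14.6% of them. Median transcript lengths were closer, at 3295, 3223 and 3067 bases. These are descriptions across genes, which are not independent replicates.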

How the data were processed

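Each sample was deposited by the authors as a table of 3 replicate columns holding a score per gene symbol. Per the study's methods, 50 bp single-end reads of poly(A) RNA were aligned with TopHat 2 to mm10 and quantified in Partek Flow. The methods name RPKM, but the deposited score shows no division by gene length; its values are reads scaled per replicate with 1 added, and the scaling factor is not given in the sources used here. Recovered reads are the score less 1 divided by the value of 1 read. Genes with at least 100 recovered reads over all 12 columns were tested with limma 3.58.1 in R 4.3.3 on log2 of the score, with a mean-variance trend, 4 groups in 1 model and no block, two-sided, with Benjamini-Hochberg adjustment over all genes tested. Calls were made at an adjusted p under 0.05, and again with at least 4-fold difference. The fit was tested on simulated data.

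Named genes were members of 37 lists, the 15 genes per direction with the largest difference among called genes whose replicates did not overlap and whose higher population averaged a score of 20 or more, and the 10 per direction with the highest level per kb under the 4-fold rule. Members and lists were chosen with earlier results of these data known. Positions, spans and the longest transcript come from GENCODE M21, which holds 98.8% of the genes tested as a single gene. Counting is not stated to use strand, so reads of a gene and an antisense or overlapping partner cannot be told apart. Deviations from the group mean correlated across genes between hair cell and non-hair cell columns of the same replicate number (r = 0.216, 0.316 and 0.200 for numbers 1, 2 and 3) and were between -0.270 and -0.0548 for different numbers, so the numbers were taken to pair the samples and the fit with the replicate block was an alternative. The other alternatives were another scaling, offset or read minimum, the 6 control columns alone, array weights, and leaving out each replicate. Some items are not reported here.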

Additional observations from a re-analysis of the deposited data

How the results depend on the processing

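The counts of genes higher and lower in hair cells stayed within 1.5 times their values in each of 14 alternatives, except that an offset of 0.1 in place of 1 raised the number at least 4-fold lower from 1557 to 2364. Leaving out each replicate in turn gave 4792–4957 genes higher, 6322–6557 lower, 901–974 at least 4-fold higher and 1463–1655 at least 4-fold lower. With the replicate number as a block (replicate block), 5171 genes were higher and 6852 lower, with 949 and 1557 under the 4-fold rule. Beyond the blocked values given with the results, the block changed no other call of a named gene. Scaling by the median of ratios gave 5902 higher and 6039 lower. Of 181 named genes that were called, 171 kept direction and call in each alternative, 10 lost the call in at least 1 and 0 reversed. The 10 were Beta-s, Hba-a1, Hba-a2, Cdkn1b, Gjb6, Ikzf2, Jag1, Ldha, Notch1 and Otogl. The haemoglobin genes lost it without hair cell replicate 1 or 3 or non-hair cell replicate 1, Ikzf2 without hair cell replicate 1 or non-hair cell replicate 2, Jag1 without hair cell replicate 3 or non-hair cell replicate 1 or 2, Otogl without non-hair cell replicate 3, and Ldha without any 1 replicate. Cdkn1b, Gjb6 and Notch1 lost it without several single replicates, and 11 uncalled genes gained a call in at least 1 alternative. Sox2, Hes5, Tecta and Tectb did so with the block, Rdx and Kcnma1 under median of ratios scaling, Fgfr3, Snap25 and Pgk1 with array weights, Pdgfra without non-hair cell replicate 3 and Cplx1 without non-hair cell replicate 1. The uncalled difference of Rfx2 ranged from -0.059 (without non-hair cell replicate 3) to 0.31 (without non-hair cell replicate 1). The causes were not tested. Depth limits the genes near a score of 1, where the added 1 compresses differences.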
